A study of Mus musculus with 16 samples.

Results

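ILMN_2703427 is a single bead-array probe, 1 of 25697 probes measured in the mouse hypothalamus. It was selected on its signal, which lay at the low end of the scale in mice that lack agouti-related peptide. It has no gene symbol in the platform annotation used here, which leaves 1719 probes unnamed, so the transcript it reads is not named here. Its sequence was not used here either. It was chosen by the differences between knockout and heterozygous arrays. These are given as a description, with no test.

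The study compared hypothalamic RNA of male mice that carry no intact copy of the AgRP gene (AgRP-/-) with that of mice that carry 1 (AgRP+/-). No wild-type group was used here, so every animal of the comparison group also carried a disrupted copy, and the labels give the strain background as mixed. Within each genotype, mice were fasted for 30 h or fed ad libitum, giving 4 groups of 4 arrays: AgRP-/- fasted, AgRP-/- fed, AgRP+/- fasted and AgRP+/- fed. Whether the arrays of a group come from different animals is not stated in the labels, so the spread behind each p-value may be technical.

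Agouti-related peptide is made in the hypothalamus by a group of arcuate nucleus neurons that also make neuropeptide Y and release the inhibitory transmitter GABA. The peptide blocks the melanocortin receptors on which peptides derived from the Pomc precursor act, and it promotes feeding. In mice these neurons are known to become more active during food deprivation, when their peptide transcripts increase, whereas neighbouring Pomc neurons restrain feeding. No probe carries the symbol Agrp in the annotation (0 probes), so there was no reading of the deleted gene by its symbol, and the probe cannot stand as a check of the genotype labels.

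In AgRP-/- mice the probe lay at the low end of the scale in all 8 arrays. It read 4.50, 4.43, 4.62 and 4.44 (log2 intensity, replicates 1 to 4) in fasted AgRP-/- mice and 4.52, 4.46, 4.47 and 4.57 in fed AgRP-/- mice. In AgRP+/- mice the readings were 11.24, 10.20, 10.01 and 10.00 when fasted and 7.68, 8.06, 9.32 and 8.36 when fed. The genotypes did not overlap in either feeding state, and among AgRP+/- arrays the fasted and fed values did not overlap either. The lowest AgRP+/- array stood 3.06 log2 units above the highest AgRP-/- array, and the lowest fasted AgRP+/- array 0.68 above the highest fed one.

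The order of the group means was AgRP+/- fasted (10.36 ± 0.59, SD, n = 4), AgRP+/- fed (8.36 ± 0.70, SD, n = 4), AgRP-/- fed (4.50 ± 0.047, SD, n = 4) and AgRP-/- fasted (4.50 ± 0.085, SD, n = 4). The last pair of neighbours in this order did not differ beyond their spread. Within an array, the probe ranked above 18.0% to 35.1% of all probes in fasted and 21.7% to 31.7% in fed AgRP-/- mice. In AgRP+/- mice it ranked above 90.9% to 96.1% of probes when fasted and 74.6% to 86.9% when fed. It was thus among the dim probes of every AgRP-/- array and among the bright ones of every AgRP+/- array.

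The AgRP-/- minus AgRP+/- difference was -5.86 in fasted and -3.85 in fed mice, on the log2 scale. On the linear scale the geometric mean intensity was 22.6 in fasted AgRP-/- mice, against 1317 in fasted AgRP+/- mice. In fed mice it was 22.7 in AgRP-/- and 328 in AgRP+/- mice. These sizes are limited by the low end of the scale: the AgRP-/- values lay beside the lower quartile of the whole table (4.49), and detection p-values were not used here. In bulk tissue, fewer cells of a type and less RNA per cell cannot be told apart.

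The spread of the probe in AgRP-/- mice was no wider than that of other dim probes. Over 10578 probes whose mean in fasted AgRP-/- arrays was within 0.25 of that of ILMN_2703427, the median SD was 0.0876, and 48.1% had a smaller SD than its 0.0853. In fed AgRP-/- arrays its SD of 0.0471 compared with a median of 0.0847 over as many such probes, of which 17.7% had a smaller SD. In AgRP+/- mice the opposite held. The SD of 0.59 in fasted AgRP+/- arrays exceeded that of 99.5% of 614 probes of like mean (median SD 0.122), and the SD of 0.70 in fed AgRP+/- arrays exceeded that of 99.2% of 1011 such probes (median SD 0.140). The brightest array was 2.36 times as bright as the dimmest among fasted and 3.12 times among fed AgRP+/- arrays.

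No other probe of the table showed this pattern at a like size. All 8 AgRP-/- arrays lay below all 8 AgRP+/- arrays for 10 of 25697 probes (0.0389%), of which ILMN_2703427 was 1. Its gap of 3.06 compared with 0.23 for Arc, an activity-induced cytoskeletal protein of synapses, and 0.096 for Mknk2, a kinase of the translation initiation factor eIF4E, which came next. ILMN_2703427 was the 1 probe that lay above the median of the table in all 8 AgRP+/- arrays and below it in all 8 AgRP-/- arrays, and 0 probes showed the reverse. Over the kept probes the central 90% of AgRP-/- minus AgRP+/- differences ran from -0.25 to 0.27 in fasted and from -0.23 to 0.25 in fed mice. By size of this difference ILMN_2703427 ranked 1 of 13662 kept probes in each feeding state. The next in fasted mice were Slc6a12 (1.98), a transporter of betaine and GABA, Gdpd3 (-1.56) and Slc13a4 (1.53), a sulfate transporter. The next in fed mice were Pdrg1 (-1.84), the chemokine gene Ccl21a (-1.26) and Myl2 (-1.05), a myosin light chain. None of these neighbours by size passed the test (limma adjusted p of 0.654 or more).

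The fasting comparison within AgRP+/- mice asks whether food deprivation changed the signal where it could be read. The rule that chose the probe names the genotype differences, which rest on the same 8 AgRP+/- values, and this comparison was known when the probe was chosen. ILMN_2703427 rose in fasted AgRP+/- mice by 2.01 on the log2 scale (SE 0.27, 95% interval 1.44 to 2.57, limma adjusted p = 0.000695), or 4.02-fold. All 16 pairs of a fasted and a fed AgRP+/- array had the fasted one higher, by 0.68 to 3.56. An exact two-sided permutation test of the 4 against 4 arrays gave p = 0.0286, the smallest it can give. Of all kept probes 0.571% were called higher in this comparison, and 3.32% had 4 fasted arrays above 4 fed ones. The central 90% of fasted minus fed differences in AgRP+/- mice ran from -0.30 to 0.30. By size the difference of ILMN_2703427 ranked 2 of 13662, after that of Plin4, a lipid droplet coat protein (3.48), and before those of Kansl1l (-1.53) and Sult1a1, a sulfotransferase (1.52).

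The SE of this fit is shared by the 4 groups, of which the AgRP-/- groups hardly varied. With the AgRP+/- arrays fitted alone the SE was 0.32 and the limma adjusted p 0.0265. The change was 1.72 (adjusted p = 0.00404) without AgRP+/- fasted replicate 1, the brightest array, and 2.33 (adjusted p = 2.97e-05) without AgRP+/- fed replicate 3, the brightest fed one. Midbrain dopamine transcripts overlapped between the fasted and fed AgRP+/- arrays, but not between the fasted and fed AgRP-/- arrays. Of 7 such markers 5 were kept, with En1 and Pitx3 not above the filter. Their mean log2 level was 7.31 to 8.58 in fasted and 7.20 to 7.76 in fed AgRP+/- arrays, a mean difference of 0.67. In AgRP-/- arrays the mean of the 5 markers was 8.33 to 8.77 when fasted and 6.88 to 7.90 when fed, a mean difference of 0.98. With 3 of them (Slc6a3, Chrna6 and Th, averaged) as a covariate the change of ILMN_2703427 was 1.95 (SE 0.33, adjusted p = 0.0139).

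Pituitary transcripts varied between arrays. Gh, growth hormone, was highest in 1 fed array of each genotype, at 6.14 in AgRP-/- fed replicate 1 and 7.78 in AgRP+/- fed replicate 2. Of 8 pituitary markers 1 passed the filter, Cga, the common subunit of the pituitary glycoprotein hormones. Cga read 4.43 to 7.17 in fasted and 4.37 to 6.09 in fed AgRP-/- arrays, against 4.38 to 4.57 in fasted and 4.59 to 5.70 in fed AgRP+/- arrays, so its highest reading was in a fasted AgRP-/- array. Without the 2 arrays with the most Gh the fasting change of ILMN_2703427 in AgRP+/- mice was 1.91 (limma adjusted p = 0.00957). Gh or Cga lay above the table median in 7 arrays, 3 fasted and 2 fed AgRP-/- and 0 fasted and 2 fed AgRP+/- arrays. Without these 7 arrays the change was 1.86 (SE 0.40) and did not pass the test (limma adjusted p = 0.188), with 9 arrays left in the fit.

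In AgRP-/- mice the fasted minus fed difference was -0.0061 (SE 0.27, 95% interval -0.57 to 0.56, limma adjusted p = 0.994), and it ranked 13242 of 13662 kept probes by size, where 0.388% were called in either direction and 4.07% had 4 fasted arrays above 4 fed ones, which ILMN_2703427 did not. A change could not be read where the signal lay at the low end of the scale. The difference between the fasting changes, AgRP-/- minus AgRP+/-, was -2.01 (SE 0.38) and did not pass the test over all probes (limma adjusted p = 0.577, where 0% of probes were called and 371 had an unadjusted p under 0.05). Without AgRP+/- fed replicate 3 it was -2.33 and passed (adjusted p = 0.00592), as the 1 probe called. Choosing a probe that is dim in all AgRP-/- arrays holds its fasting change there near 0, so this difference is not independent of the choice.

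The labelled tissue was checked with transcripts of hypothalamic neurons. Of 10 markers of hypothalamic neurons outside the arcuate nucleus 7 passed the filter, Avp, Oxt, Hcrt, Pmch, Trh, Vip and Nkx2-1. Crh, Sim1 and Nr5a1 had no kept probe. The mean log2 level, taken over the kept markers alone, lay between 10.98 and 11.46 in every array. Of 10 arcuate markers 9 passed, the exception being Agrp, which has no probe by name. Of 6 thalamus and cortex markers 4 also passed, Tcf7l2, Prkcd, Rorb and Tbr1, with a mean between 6.70 and 7.87.

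The gene most like ILMN_2703427 in its variation between AgRP+/- arrays was Npy, which encodes neuropeptide Y. Likeness was measured as the Pearson correlation of deviations from the group means over the 8 AgRP+/- arrays, a measure from which the fasting change and the genotype difference are removed. Npy ranked 1 of 9530 genes (r = 0.993, Spearman's rho = 0.976). The probe deviated from its group mean by 0.87, -0.17, -0.35 and -0.36 in fasted AgRP+/- replicates 1 to 4, where Npy deviated by 0.47, -0.12, -0.19 and -0.16. It deviated by -0.67, -0.29, 0.97 and 0.0032 in fed AgRP+/- replicates 1 to 4, where Npy deviated by -0.45, -0.16, 0.62 and -0.017. Relative to their groups, fasted replicate 1 and fed replicate 3 were the 2 brightest arrays for both transcripts, and fed replicate 1 was the dimmest for both. Over all 13661 other kept probes the central 95% of correlations ran from -0.757 to 0.759, and 43 probes reached 0.9. A value of 0.9 or more over these 8 arrays was thus not particular to Npy.

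Relations with 3 peptide genes of the arcuate nucleus were tested by reordering arrays within each AgRP+/- group (576 orders, exact, two-sided). For Npy the exact p was 0.00347 for r and 0.00347 for rho (0.0104 each after Benjamini-Hochberg adjustment over the 3 genes), and r was 0.964 without the 2 arrays farthest from the median, AgRP+/- fed replicate 3 and AgRP+/- fasted replicate 1. For Pomc, the precursor of the melanocortin peptides, r was 0.559 and rho 0.667 (exact p = 0.175 and 0.113, adjusted 0.222 and 0.169), and r was 0.191 without those arrays. For Cartpt, a peptide gene of Pomc neurons and others, r was 0.525 and rho 0.548 (exact p = 0.222 and 0.179, adjusted 0.222 and 0.179), and r was 0.204 without them. The relations of Pomc and Cartpt did not pass the test. The adjustment covers these 3 genes alone, not the ranking of 9530 genes by the same correlation, in which Npy came first. With 1 array left out at a time, r for Npy stayed between 0.991 and 0.996. For Pomc it was -0.00153 without AgRP+/- fed replicate 3 and 0.474 to 0.825 without any other array, and for Cartpt 0.359 without the same array and 0.469 to 0.765 without any other.

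Marker transcripts of arcuate neurons and oligodendrocytes varied between the same arrays. The mean of the 8 arcuate markers other than Npy and Agrp ran from 8.55 to 8.95 in fasted and 8.63 to 9.10 in fed AgRP+/- arrays, and its deviations had r = 0.536 with those of the probe. The mean of the 3 kept of 4 oligodendrocyte markers (Mbp, Mog and Mag) ran from 11.89 to 12.16 and 11.48 to 12.16 in the same groups, with r = -0.702. Among the other sets r was -0.587 for thalamus and cortex, -0.550 for endothelium, -0.394 for microglia and 0.179 for other hypothalamic neurons. The remaining sets ran from -0.342 (choroid plexus) to 0.310 (tanycytes and ependyma), leaving aside the arcuate set with Npy. All these values lie within the central range of single kept probes, -0.757 to 0.759. The sets were named after their values were seen. These are descriptions over 8 arrays, and the part of the marker sets in the likeness was not tested.

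Npy did not share the low readings in AgRP-/- mice. It read 10.23, 10.84, 11.09 and 10.50 in fasted AgRP-/- mice, against 11.05, 10.46, 10.39 and 10.43 in fasted AgRP+/- mice. In fed mice it read 9.76, 9.93, 10.00 and 9.56 in AgRP-/- and 9.26, 9.55, 10.33 and 9.69 in AgRP+/- arrays. The genotypes overlapped in both states, with AgRP-/- minus AgRP+/- differences of 0.082 in fasted and 0.10 in fed mice (limma adjusted p = 0.947 and 0.999). The fasted minus fed difference of Npy was 0.85 in AgRP-/- mice (SE 0.20, limma adjusted p = 0.069) and 0.87 in AgRP+/- mice (SE 0.20, adjusted p = 0.0472). The call in AgRP+/- mice was lost without any 1 of 13 of the 16 arrays, the exceptions being AgRP+/- fed replicate 3 and AgRP-/- fasted replicates 1 and 3.

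The fasting change of ILMN_2703427 in AgRP+/- mice was larger than that of Npy. Taken per array, the probe minus Npy changed by 1.13 on the log2 scale, with all 4 fasted arrays above all 4 fed ones (exact two-sided permutation p = 0.0286, the smallest possible). The SD of this difference was 0.28 in fasted and 0.25 in fed AgRP+/- arrays, against 0.59 and 0.70 for the probe alone. The probe deviated by 1.65 log2 units per unit of Npy within the groups. Probes can differ in how steeply their signal follows RNA, and this was not tested.

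After Npy, the genes most like the probe within the AgRP+/- groups were Gstm5, a glutathione transferase (r = 0.975, rho = 0.952), Rin2, a regulator of Rab5 (r = 0.962, rho = 0.976), Ndufaf3, an assembly factor of respiratory complex I (r = 0.956, rho = 0.857), and Smc5, a chromosome maintenance protein (r = 0.954, rho = 0.810). The most opposed were Llgl1, a cell polarity protein (r = -0.976), Plod1, a collagen lysyl hydroxylase (r = -0.963), and Pnmt, the enzyme that makes adrenaline (r = -0.962). The deviations of these genes were smaller. The SD of Gstm5 was 0.18 in fasted and 0.20 in fed AgRP+/- arrays, and that of Rin2 was 0.098 and 0.16.

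Over the values of all 16 arrays, which fall into genotype clusters and carry the difference that chose the probe, the highest correlations were those of Mob3a (r = 0.903, rho = 0.818), a protein of the MOB kinase activator family, Mknk2 (0.898, 0.812), Arc (0.856, 0.765), Hsd17b12 (0.810, 0.715), an enzyme of fatty acid elongation, and Wdr83os (0.808, 0.761). The lowest were those of Plpbp (-0.783), the Mediator subunit gene Med1 (-0.774) and the ubiquitin ligase scaffold gene Cul1 (-0.769). Mob3a read 7.28 to 7.43 in fasted AgRP-/- and 7.61 to 7.93 in fasted AgRP+/- mice, and Arc read 6.26 to 6.58 and 6.81 to 7.11 in the same groups. Their AgRP-/- minus AgRP+/- differences in fasted mice, -0.44 and -0.53, did not pass the test (limma adjusted p = 0.259 for both), and they are a small share of the 5.86 log2 units by which the probe was lower. No fasting change of these 5 genes passed the test in AgRP+/- mice. Their fasted minus fed differences there ran from -0.0060 for Arc to 0.15 for Mob3a (limma adjusted p of 0.576 or more).

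A list of 40 genes of the hypothalamic feeding circuit was read beside the probe. Of these genes 36 had a probe and 25 passed the filter. In fasted AgRP+/- mice 1 of the 25 was called higher and 0 lower, where 0.754% of all kept probes were called, and the gene was Npy. In AgRP-/- mice limma called 0, where 0.388% of all kept probes were called. At an unadjusted p under 0.05 there were 5 of the 25 in AgRP-/- and 5 in AgRP+/- mice, beside 13% and 11.7% of all kept probes. The median fasted minus fed difference of the list was 0.037 in AgRP+/- mice, beside -0.0025 over all kept probes, and no member came near the 2.01 of ILMN_2703427. Gal, a neuropeptide, read -0.52, the transcription factor gene Foxo1 0.39, Vgf, a precursor of secreted peptides, 0.40, and Slc32a1, the vesicular GABA transporter, -0.14 (limma adjusted p = 0.106, 0.131, 0.192 and 0.391). Pomc read -0.058 and Cartpt 0.12 (0.943 and 0.697). Between genotypes the differences of the 25 genes ran from -0.25 to 0.091 in fasted and from -0.58 to 0.21 in fed mice, with 0 called by limma and 0 at an unadjusted p under 0.05 in either state. Of all kept probes limma called 0.0146% between genotypes in fasted and 0.00732% in fed mice, and 6.87% and 4.27% had an unadjusted p under 0.05. The called shares are 2 and 1 probes, with ILMN_2703427, which was chosen by this contrast, counted among them.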

How the data were processed

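Each of the 16 arrays was grouped by its title. The values deposited by the authors are log2 intensities from 4.21 to 14.7, 1 per array for each of 25697 probes. The submitters' processing notes name limma, without its version or its role. How background was corrected and how arrays were normalized is not given in the sources used here. As deposited, array medians differed by at most 0.00855, and values of equal rank in the arrays by at most 0.0345. The arrays thus had nearly the same distribution of values, so a shift common to most transcripts would not be seen. The number of arrays limits the precision.

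Probes above the table's median, 5.125, in at least 4 arrays were kept (13662 probes, of which 786 had no symbol). ILMN_2703427 passed through its AgRP+/- arrays. Where several kept probes named a gene, the brightest stood for it. All kept probes and 16 arrays entered a linear model with a mean for each group in limma 3.58.1 in R 4.3.3 (empirical Bayes, intensity trend), with Benjamini-Hochberg adjustment over the kept probes and calls at an adjusted p under 0.05. Exact permutation tests used scipy 1.17.1. The fit was tested on simulated data with 13662 probes: for fasting in AgRP+/- mice it recovered 43.3%, 94.0% and 98.5% of shifts of 0.5, 1 and 2, with 4 false calls.

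Besides the probe, the genes named are the 5 most and 3 least like it by each of 2 correlations, its 3 neighbours by size in each of 3 comparisons, and Npy, Pomc, Cartpt and the 4 feeding circuit genes with the smallest p. Gh and the marker genes were named after their values were seen. The probe, lists and tests were chosen with earlier results of these data known. Alternatives were other filters, normalizations, variance settings, array weights, the compared groups alone, 1 probe per gene, the replicate number as a block, and each array left out. The dopamine covariate and the fits without the 2 arrays with the most Gh and without the 7 with Gh or Cga above the median were added after seeing the data.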

Additional observations from a re-analysis of the deposited data

Results flagged for a closer look

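AgRP+/- fasted replicate 1 stood apart from the other 3 arrays of its group for ILMN_2703427: its gap to the nearest array was 0.842 of the range of the group. For Npy the same array stood apart, with a gap of 0.894 of the range. AgRP+/- fed replicate 3 stood apart for Pomc, with a gap of 0.850 of the range, and was the brightest of its group for ILMN_2703427 and Npy. Each gap exceeds Dixon's 95% critical value for groups of 4, which chance passes in about 1 of 20 groups. Here 16 groups of values were checked, for ILMN_2703427, Npy, Pomc and Cartpt, and 3 passed it. These genes share arrays, so the 3 are not independent.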

How the results depend on the processing

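The rise of ILMN_2703427 in fasted AgRP+/- mice kept its direction in all 28 alternatives (1.72 to 2.33 on the log2 scale) and its call in 27 (limma adjusted p from 2.97e-05 to 0.0265, the highest of these with the compared groups alone). It lost its call without the 7 arrays with Gh or Cga above the table median (1.86, adjusted p = 0.188), and leaving out 1 array gave 1.72 to 2.33. The difference in AgRP-/- mice passed in none of 28 (-0.097 to 0.016, and -0.046 to 0.016 with 1 array left out). The genotype differences ran from -5.98 to -5.57 in fasted and from -4.08 to -3.53 in fed mice. The difference between the fasting changes ran from -2.33 to -1.72 with 1 array left out and passed without AgRP+/- fed replicate 3 alone. The probes called for fasting in AgRP-/- mice numbered 53, against 29 without the trend, 143 with array weights, 87 with the compared groups alone, 90 with the replicate block, 1 with the dopamine covariate and 0 without the 7 arrays (884 at an unadjusted p under 0.05), and 27 to 73 with 1 array left out. In AgRP+/- mice they numbered 103, against 30 with the compared groups alone, 19 with the dopamine covariate, 45 without the 2 arrays with the most Gh and 9 without the 7 arrays, and 41 to 107 with 1 array left out. For the difference between the fasting changes 0 to 1 were called. The fit without 7 arrays rests on 9, of which 1 is AgRP-/- fasted, and the cause of the other shifts was not tested. Whether same-numbered arrays share more than a number was not known here. Their deviations correlated between -0.187 and 0.299 over 24 pairs, of which 7 exceeded 0.1. The call of Npy for fasting in AgRP+/- mice was kept in 6 of 28 alternatives. With the replicate block the adjusted p of the rise was 0.002. Signal over background was not measured, which limits every AgRP-/- value of the probe.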
